A study of Mus musculus with 12 samples.

Results

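The complement components examined here were *C1qa*, *C1qb*, *C1qc*, *C1ra*, *C1s1*, *C2*, *C3*, *C4b* and *Cfb*, chosen by name as genes that encode proteins of the classical and alternative activation routes. All 9 were among the 15687 genes with a deposited value. They were measured by RNA sequencing of 12 subcutaneous tumors, 6 from mTc11 cells carrying a control shRNA (shControl, here CTL) and 6 from mTc11 cells carrying an shRNA against *Filip1l* (labelled Filip1l KD, here *Filip1l*-knockdown). The mTc11 line is a mouse lung cancer line and is shared by both groups. The cells of both groups had been transduced with lentivirus, selected with puromycin and kept as mixed clones rather than single clones. Of the 2 *Filip1l* target sequences the study used, the one carried by the sequenced tumors is not stated. Each tumor grew from cells injected in Matrigel under the skin of a male C57BL6/J mouse that was 8 weeks old at injection and had an intact immune system, and all tumors were taken on day 24. The RNA of each tumor therefore came from cancer cells and host cells together, and in such bulk samples fewer cells of a type and less RNA per cell cannot be told apart.

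Complement is a cascade of secreted proteases and their substrates. In the classical route, C1q binds a target and the proteases C1r and C1s cleave C4 and C2, which form an enzyme that cleaves C3. In the alternative route, factor B takes the place of C2 and pairs with C3b itself, so that *C2* and *Cfb* encode the paired catalytic subunits of the C3-cleaving enzymes and *C4b* and *C3* the paired scaffolds. Macrophages are known as the main source of C1q in tissues, the liver is the main source of most circulating components, and fibroblasts, epithelial cells and tumor cells can make several components locally.

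The values, called normalized counts, are numbers of reads per gene after division by a size factor for the tumor. Tumors held between 17834745 and 32419578 reads on listed genes, and a floor of 3 reads corresponded to 3.15 normalized counts in CTL and 2.91 in *Filip1l*-knockdown tumors on average, which covers counting error only. None of the 9 components was at or under that floor in any tumor. *Filip1l* itself had 2311 ± 211 normalized counts in CTL and 1924 ± 165 after *Filip1l* knockdown (SD, n = 6 each), and the log2 fold change was -0.26 (limma adjusted p = 0.00998). Its ranges of 1983 to 2542 and 1670 to 2184 normalized counts overlapped. These values are RNA of cancer and host cells together. By immunohistochemistry the paper reported less FILIP1L protein in tumors from knockdown cells. Markers of epithelial cancer cells were present in every tumor, with *Krt8* never below 47665 and *Epcam* never below 3817 normalized counts. Nothing in the labels says more of the replicates than that they are biological, so that p-values measure the spread between these tumors. How many transduced cell pools a group came from is not stated. A difference between the cell pools therefore cannot be told apart from an effect of the shRNA.

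The 9 genes lie on 3 chromosomes of the mouse genome (positions on GRCm38 from GENCODE). *C1qa* (ENSMUSG00000036887, chr4:136895917-136898803), *C1qb* (ENSMUSG00000036905, chr4:136880129-136886187) and *C1qc* (ENSMUSG00000036896, chr4:136889804-136893065) lie side by side on the minus strand within 18.7 kb. *C1ra* (ENSMUSG00000055172, chr6:124512405-124523443, plus strand) and *C1s1* (ENSMUSG00000038521, chr6:124530345-124542359, minus strand) face each other across 6.90 kb. *C4b* (ENSMUSG00000073418, chr17:34728380-34743882), *Cfb* (ENSMUSG00000090231, chr17:34856374-34862518) and *C2* (ENSMUSG00000024371, chr17:34862604-34898265) lie on the minus strand of chromosome 17, with 85 bases between the end of *C2* and the start of *Cfb*. *C3* (ENSMUSG00000024164, chr17:57203970-57228136) lies farther along the same chromosome.

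Promoter windows are shown for the neighbours *C1ra* and *C1s1*, which moved together, and for *C3*, the most abundant component that moved. Each window runs from 250 bases before to 50 bases after an annotated start, and the sequences are RefSeq's on GRCm38.p6. Capitals mark matches, on either strand, to 4 motif patterns chosen after the values had been seen. These were a kappaB pattern (GGG and CC with 5 bases of any kind between them), an interferon-stimulated response element (GAAA and GAAA with 2 bases between), an interferon-gamma-activated site (GAS, TTCNNNGAA) and a C/EBP pattern (TTGCNNAA).
*C3*, chr17:57228087-57228386, minus strand: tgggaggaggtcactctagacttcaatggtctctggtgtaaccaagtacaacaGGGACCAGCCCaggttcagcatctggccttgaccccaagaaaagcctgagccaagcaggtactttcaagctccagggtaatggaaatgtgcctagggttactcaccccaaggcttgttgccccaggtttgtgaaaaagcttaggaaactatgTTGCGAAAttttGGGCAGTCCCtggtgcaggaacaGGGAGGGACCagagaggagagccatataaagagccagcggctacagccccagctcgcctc
*C1s1*, chr6:124542310-124542609, minus strand: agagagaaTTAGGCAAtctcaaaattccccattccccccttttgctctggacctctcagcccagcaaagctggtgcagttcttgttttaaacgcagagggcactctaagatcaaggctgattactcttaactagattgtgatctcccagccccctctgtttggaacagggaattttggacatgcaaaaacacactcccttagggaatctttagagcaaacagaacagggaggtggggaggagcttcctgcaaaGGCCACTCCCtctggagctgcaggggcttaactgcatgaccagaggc
*C1ra*, chr6:124512371-124512670, plus strand: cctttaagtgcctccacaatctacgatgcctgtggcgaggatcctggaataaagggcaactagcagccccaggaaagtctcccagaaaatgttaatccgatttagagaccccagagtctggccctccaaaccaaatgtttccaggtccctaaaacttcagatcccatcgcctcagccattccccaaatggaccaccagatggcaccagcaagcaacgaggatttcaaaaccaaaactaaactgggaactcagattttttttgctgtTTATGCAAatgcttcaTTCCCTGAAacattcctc

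In the *C3* window 4 matches to the kappaB pattern were found, some of them overlapping, and 1 match to the C/EBP pattern shortly before the start. The *C1s1* window held 1 kappaB match, just after the start, and 1 C/EBP match near its far end. From a second annotated start of *C1s1* the same kappaB match lies before the start, and the window holds no C/EBP match. The *C1ra* window held 1 C/EBP match and 1 GAS match, both after the RefSeq start. That start lies downstream of the GENCODE start of *C1ra*, so most of the window is inside the annotated gene. Of all 32851 mouse promoter windows of this length, 50.8% held a kappaB match, 10.8% a C/EBP match, 8.30% a GAS match and 3.44% an interferon-stimulated response element. The promoters of *C1qb* and *C1qc*, genes that did not pass the test, held 2 overlapping kappaB matches each. Windows were found for 5 of the 9 genes, and not for *C2*, the component that changed most. A match describes the letters only.

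In *Filip1l*-knockdown tumors the transcripts of *C2* and *C3* were higher than in CTL tumors, by 5.11-fold and 2.46-fold, and those of the proteases *C1s1* and *C1ra* were higher by 1.89-fold and 1.48-fold. All fold changes are on the scale log2(normalized count + 1). The subunits of C1q, *C4b* and *Cfb* did not pass the test. At an adjusted p under 0.05 with an absolute log2 fold change over 1, 2 of the 9 components were called higher and 0 lower, where 10.2% of all genes were called, 6.20% higher and 3.97% lower. At an adjusted p under 0.05 alone 4 of the 9 were higher and 0 lower, against a background of 41.9% of all genes, 21.1% higher and 20.7% lower. The median log2 fold change was -0.01 over the 9 components and 0.01 over all genes. With so many genes past the threshold, the counts of components are described here and nothing particular to complement is drawn from them.

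**Figure D1:**
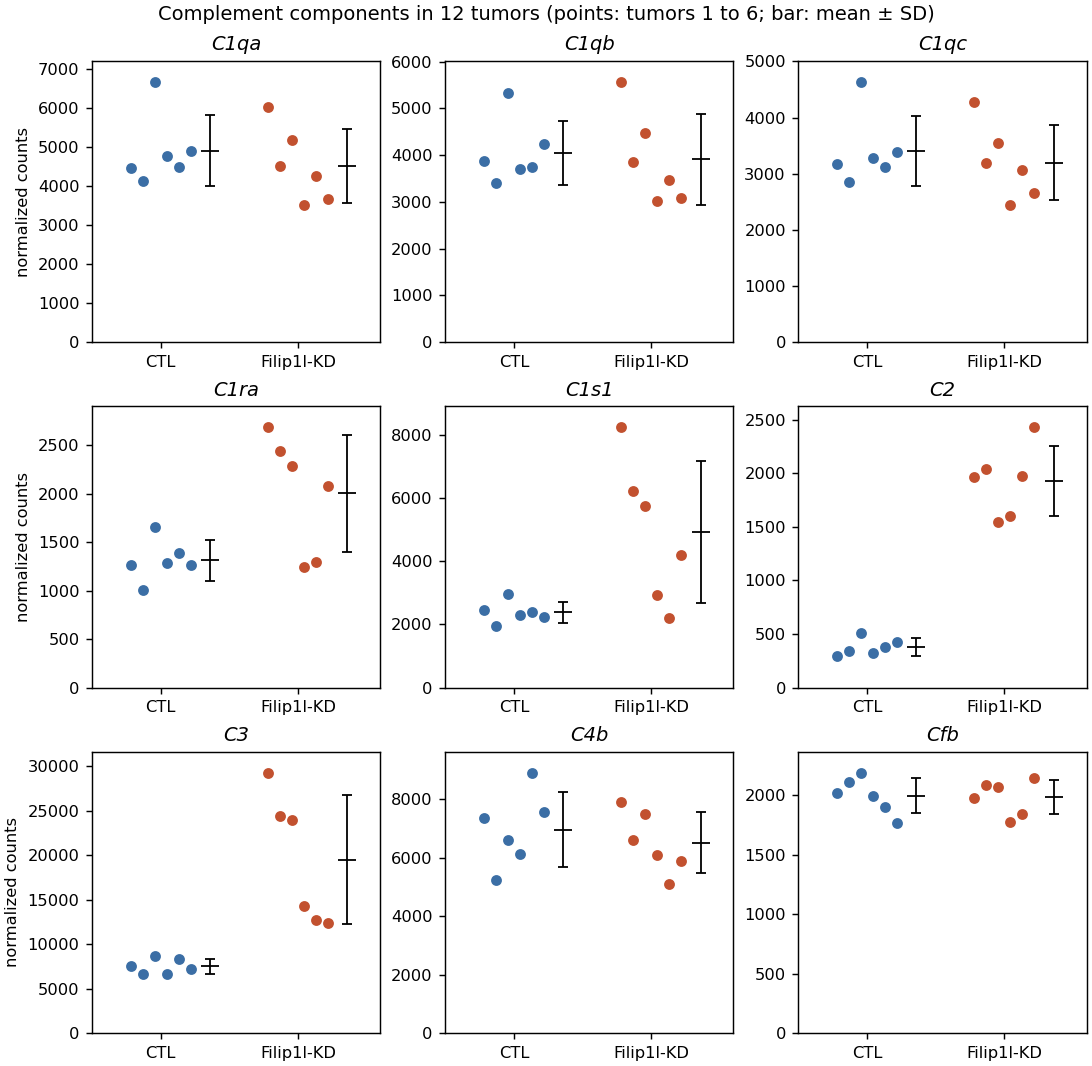
Normalized counts (vertical axes, from 0) of the 9 complement components in each of 6 CTL (blue) and 6 *Filip1l*-knockdown tumors (orange). Points run from tumor 1 to 6 within a group and the bar is the mean with its SD. *C2* and *C3* show no overlap between groups, and *C1ra* and *C1s1* are spread out in the *Filip1l*-knockdown group.

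*C2*, the serine protease of the classical C3-cleaving enzyme, changed most. In CTL tumors 1 to 6 it had 291, 345, 513, 322, 375 and 428 normalized counts. In *Filip1l*-knockdown tumors 1 to 6 it had 1965, 2046, 1546, 1598, 1978 and 2431 normalized counts. The lowest *Filip1l*-knockdown tumor lay far above the highest CTL tumor. The means were 379 ± 80.7 and 1927 ± 324 normalized counts (SD, n = 6 each), and the log2 fold change was 2.35 ± 0.14 (SE, limma adjusted p = 4.38e-08). By exact two-sided permutation the p was 0.00216, the smallest that 6 against 6 tumors allow. Groups that do not overlap were found in 21.5% of all genes, in 10.6% with the *Filip1l*-knockdown tumors above and in 10.9% with them below. Of the exonic bases of *C2* in the annotation, 46.9% also belong to another gene, *Zbtb12* on the opposite strand or the read-through gene *Gm20547* on the same strand, which has no deposited value. The methods say that unique hits were counted, without stating how reads in shared bases were treated or whether strand was used. *Zbtb12* itself was lower in *Filip1l*-knockdown tumors, with a log2 fold change of -0.48 (limma adjusted p = 0.00135).

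*C3*, the substrate on which all routes converge, had the highest mean number of reads of the 9 in both groups. CTL tumors 1 to 6 had 7579, 6685, 8649, 6663, 8362 and 7142 normalized counts. *Filip1l*-knockdown tumors 1 to 6 had 29297, 24435, 23957, 14340, 12666 and 12431 normalized counts. The groups did not overlap, and among the *Filip1l*-knockdown tumors tumors 1, 2 and 3 were set apart from tumors 4, 5 and 6. The means were 7513 ± 844 and 19521 ± 7259 normalized counts (SD, 6 tumors each), and the log2 fold change of 1.30 ± 0.20 (SE, limma adjusted p = 0.000142, exact permutation p = 0.00216). The order of tumors in *C2* was another, with *Filip1l*-knockdown tumor 6 the highest for *C2* and the lowest of its group for *C3*.

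*C1s1*, the protease that cleaves C4 and C2, had between 1964 and 2955 normalized counts in CTL tumors (median 2331). In *Filip1l*-knockdown tumors 1 to 6 it had 8237, 6206, 5755, 2931, 2202 and 4208 normalized counts. Tumors 4 and 5 of the *Filip1l*-knockdown group lay inside the CTL range and the other 4 above it. The log2 fold change of *C1s1* was 0.92 ± 0.26 (SE, limma adjusted p = 0.0106, exact permutation p = 0.0238), short of the fold used for a call. *C1ra*, which encodes the protease that activates C1s, had between 1001 and 1651 normalized counts in CTL tumors (median 1278). In *Filip1l*-knockdown tumors 1 to 6 it had 2684, 2434, 2281, 1244, 1294 and 2082 normalized counts. As for *C1s1*, tumors 4 and 5 lay inside the CTL range. The log2 fold change of *C1ra* was 0.57 ± 0.19 (SE, limma adjusted p = 0.0256, exact permutation p = 0.0390). Significance was lost when any of 4 single tumors was left out, CTL tumor 2 or *Filip1l*-knockdown tumor 2, 3 or 6, with adjusted p between 0.0501 and 0.0595. Both genes have near-identical neighbours (*C1rb* and *C1s2*) that can share reads, and 18.4% of the exonic bases of *C1s1* lie opposite the antisense gene *Gm16567*. The deposited level of these copies was low, with means of 10.3 and 15.6 normalized counts for *C1rb* and 6.74 and 13.9 for *C1s2* in CTL and *Filip1l*-knockdown tumors.

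The 3 subunits of C1q, the recognition molecule of the classical route, did not pass the test. *C1qa* ranged from 4128 to 6678 normalized counts in CTL tumors (median 4634) and from 3513 to 6033 in *Filip1l*-knockdown tumors (median 4388). Its log2 fold change was -0.12 (95% interval -0.42 to 0.17, limma adjusted p = 0.504). *C1qb* ranged from 3398 to 5335 normalized counts in CTL (median 3815) and from 3023 to 5566 in *Filip1l*-knockdown tumors (median 3660), with a log2 fold change of -0.07 (95% interval -0.38 to 0.24, limma adjusted p = 0.744). *C1qc* ranged from 2859 to 4634 normalized counts in CTL (median 3220) and from 2436 to 4282 in *Filip1l*-knockdown tumors (median 3126), with a log2 fold change of -0.10 (95% interval -0.39 to 0.19, limma adjusted p = 0.600). The groups overlapped for all 3, CTL tumor 3 was the highest CTL tumor for each and *Filip1l*-knockdown tumor 1 the highest of its group for each. Changes within these intervals remain compatible with the values of 6 tumors a group.

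*C4b*, the scaffold of the classical C3-cleaving enzyme, ranged from 5221 to 8910 normalized counts in CTL tumors (median 6986) and from 5099 to 7899 in *Filip1l*-knockdown tumors (median 6341). Its log2 fold change was -0.09 (95% interval -0.37 to 0.18, limma adjusted p = 0.600). *C4b* has a near-identical copy, *C4a*, whose deposited mean was 18.0 normalized counts in CTL and 22.7 in *Filip1l*-knockdown tumors, and the split of reads between both is uncertain. *Cfb*, the alternative-route counterpart of *C2*, had the narrowest spread of the 9 relative to its level, with an SE of 0.06 for its log2 fold change. It ranged from 1766 to 2190 normalized counts in CTL tumors (median 2006) and from 1777 to 2144 in *Filip1l*-knockdown tumors (median 2026). Its log2 fold change was -0.01, with a 95% interval from -0.15 to 0.13 (limma adjusted p = 0.932). Of the exonic bases of *Cfb*, 79.5% are shared with the same read-through gene *Gm20547*, so the level of *Cfb* rests on how reads in those bases were counted.

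**Figure D2:**
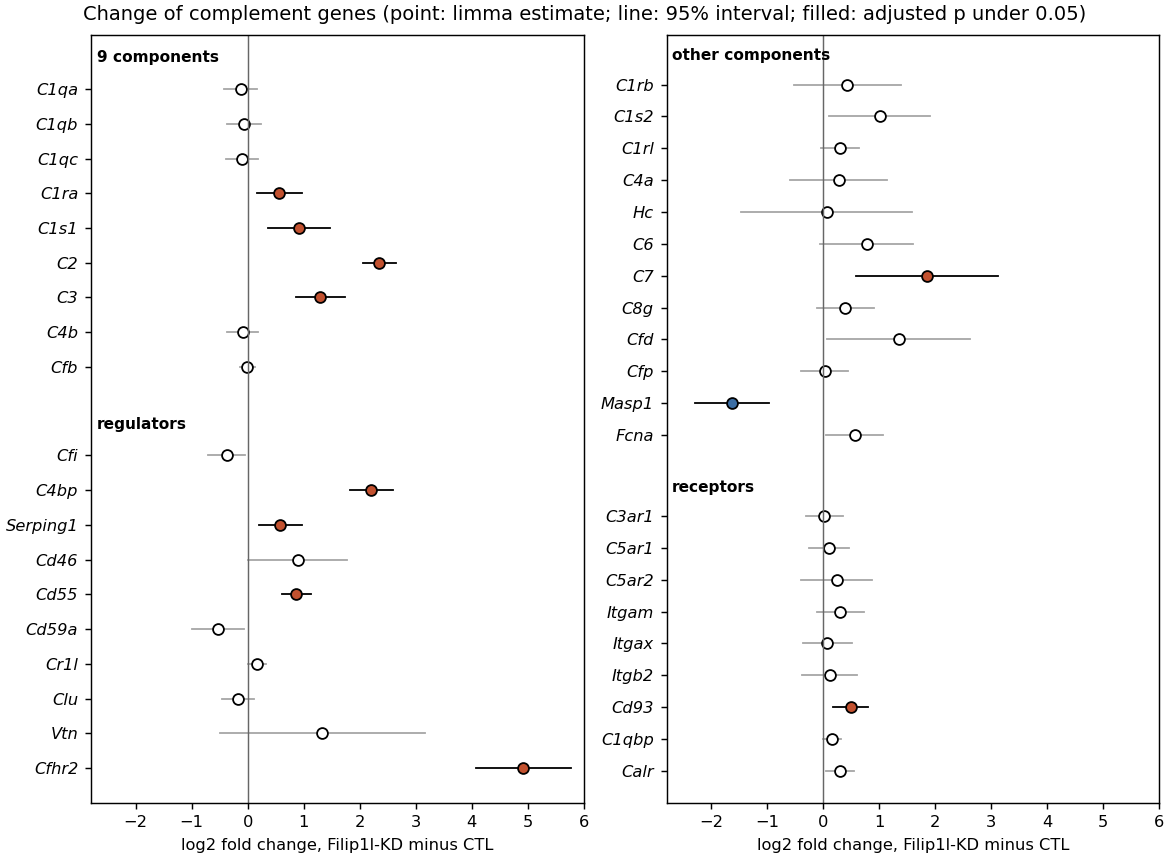
Log2 fold change of *Filip1l*-knockdown against CTL tumors (horizontal axis) for the 9 components and 31 other complement genes, by role. Points are limma estimates, lines 95% intervals, and filled points have an adjusted p under 0.05 (orange higher, blue lower). Among the 9 components *C2*, *C3*, *C1s1* and *C1ra* are filled, and *Masp1* is the one filled gene on the lower side.

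Whether components changed by different amounts was tested on the log2 ratio of each pair within a tumor, for all 36 pairs, with exact two-sided permutation tests and adjustment over the 36. In 26 pairs the ratio differed between groups at an adjusted p under 0.05, and in 15 pairs the ratios did not overlap. The 26 were the pairs that hold *C2*, *C3*, *C1s1* or *C1ra*, so they largely repeat the changes of these genes. They are not separate results, and the share over pairs of other genes was not computed. The catalytic subunits *C2* and *Cfb*, neighbours on chromosome 17, changed unequally. The log2 ratio of *C2* to *Cfb* was -2.42 ± 0.31 in CTL and -0.06 ± 0.21 after *Filip1l* knockdown (SD, n = 6 each), a difference of 2.36 (exact p = 0.00216, adjusted p = 0.00519). In *Filip1l*-knockdown tumors *C2* was thus near the read number of *Cfb*. Of their exonic bases 46.9% and 79.5% are shared with other genes, so similar read numbers need not mean similar transcript levels. The scaffolds *C3* and *C4b* had a log2 ratio of 0.12 ± 0.21 in CTL and 1.51 ± 0.35 in *Filip1l*-knockdown tumors, a difference of 1.39 (exact p = 0.00216, adjusted p = 0.00519). *C2* rose more than *C3*, with a difference of 1.05 in their log2 ratio (exact p = 0.00216, adjusted p = 0.00519). *C1s1* rose more than *C1ra*, by a difference of 0.35 (the *C1ra* to *C1s1* ratio was -0.87 ± 0.08 in CTL and -1.22 ± 0.30 in *Filip1l*-knockdown tumors, exact p = 0.0303, adjusted p = 0.0420). The 10 pairs that did not pass were those among the 3 C1q genes, *C4b* and *Cfb*. The largest difference among these was -0.12, for *C1qa* to *Cfb* (exact p = 0.452, adjusted p = 0.543).

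**Figure D3:**
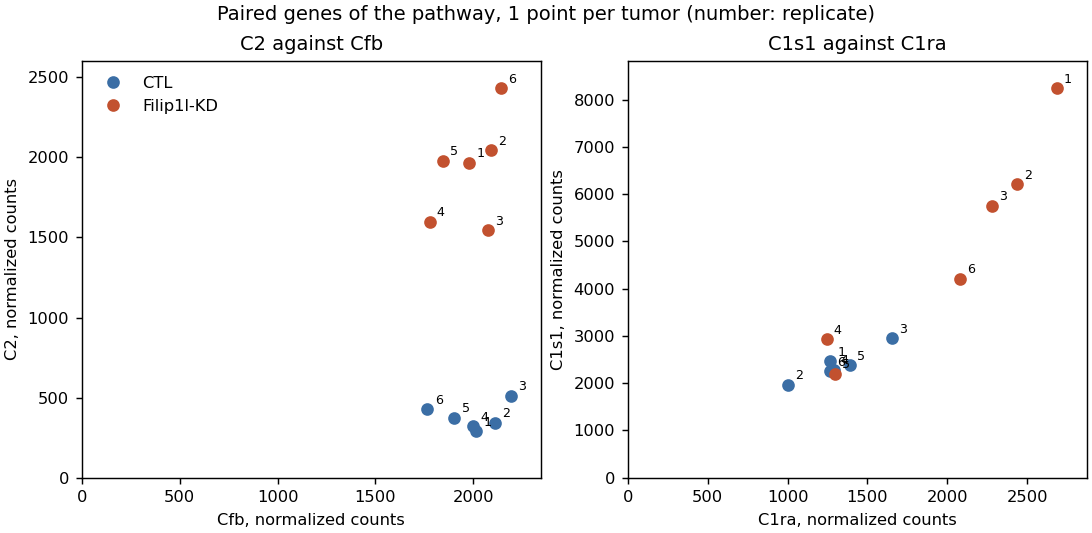
Normalized counts of *C2* against *Cfb* (left) and of *C1s1* against *C1ra* (right), 1 point per tumor with its replicate number, CTL in blue and *Filip1l*-knockdown in orange. On the left the groups separate along *C2* and share the range of *Cfb*. On the right both genes rise together, with more *C1s1* for a given *C1ra* on average in *Filip1l*-knockdown tumors. *Filip1l*-knockdown tumors 4 and 5 lie inside the CTL range of both genes.

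Per kilobase of annotated exon, the order of levels in CTL tumors was *C1qa*, *C1qb*, *C1qc*, *C3*, *C4b*, *C1s1*, *Cfb*, *C1ra* and *C2*, from 4719 ± 874 normalized counts per kb for *C1qa* to 97.9 ± 20.9 for *C2* (SD, n = 6). The ranges of *C1qa* and *C1qb* overlapped, as did those of *C1qc* with *C3*, *C3* with *C4b*, *C4b* with *C1s1* and *C1s1* with *Cfb*. In *Filip1l*-knockdown tumors *C3* stood between *C1qa* and *C1qb*, with 3796 ± 1412 normalized counts per kb against 4353 ± 916 and 3595 ± 893, and the ranges of all 3 overlapped. *C1s1* stood above *C4b* there, with 1573 ± 718 against 1143 ± 183 normalized counts per kb and overlapping ranges. *C2* stayed the lowest, with 498 ± 83.7 normalized counts per kb, and its range now overlapped that of *C1ra* (672 ± 202). The place of *C2* and *Cfb* in this order rests on exons shared with other genes.

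Within groups, some components followed each other from tumor to tumor. After the group means had been removed from log2 values, 7 relations over the 12 tumors were tested by permutation within groups. *C1qa* and *C1qb* had Pearson r = 0.98 (permutation p = 4.0e-05, adjusted p = 0.00028) and Spearman rho = 0.92 (permutation p = 0.00025, adjusted p = 0.00175), and r was 0.95 without CTL tumor 3 and *Filip1l*-knockdown tumor 1, the farthest from the median. *C1ra* and *C1s1* had r = 0.94 (permutation p = 0.00013, adjusted p = 0.000455) and rho = 0.86 (permutation p = 0.00063, adjusted p = 0.0022), and r was 0.89 without *Filip1l*-knockdown tumors 4 and 5. In each group taken alone r was 0.96 and 0.99 for *C1qa* and *C1qb*, and 0.95 and 0.95 for *C1ra* and *C1s1*. *C2* and *Cfb* had r = 0.25 (permutation p = 0.448, adjusted p = 0.448) and rho = 0.24 (permutation p = 0.473, adjusted p = 0.552), with r = 0.08 without CTL tumors 1 and 3. *C3* and *Cfb* had r = 0.27 (permutation p = 0.418, adjusted p = 0.448) and rho = 0.17 (permutation p = 0.617, adjusted p = 0.617), with r = 0.61 without *Filip1l*-knockdown tumors 1 and 6.

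Against markers of cells that can hold these transcripts, *C1qa* and *Csf1r*, the receptor that macrophages need to survive, had r = 0.70 (permutation p = 0.0148, adjusted p = 0.0345) and rho = 0.52 (permutation p = 0.109, adjusted p = 0.214). That relation rested on few tumors, since r was 0.48 without CTL tumor 3 and *Filip1l*-knockdown tumor 1, and 0.20 in CTL against 0.92 in *Filip1l*-knockdown tumors. *C1s1* and the collagen gene *Col1a1* had r = 0.66 (permutation p = 0.0796, adjusted p = 0.139) and rho = 0.54 (permutation p = 0.122, adjusted p = 0.214), with r = 0.73 without *Filip1l*-knockdown tumors 1 and 5. *C3* and *Epcam* had r = -0.39 (permutation p = 0.205, adjusted p = 0.286) and rho = -0.35 (permutation p = 0.284, adjusted p = 0.398), with r = -0.14 without *Filip1l*-knockdown tumors 1 and 6. For *C3* and *Epcam* r was 0.35 in CTL and -0.71 in *Filip1l*-knockdown tumors, opposite in sign. The difference between both groups in these relations was not tested.

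The genes most like 4 of the components were listed by the same group-centred r over 12 tumors, among the 12888 genes averaging 50 normalized counts or more, as a description in which genes share the libraries and their depth. Most like *C1qa* were *C1qc* (r = 0.996), *C1qb* (0.98), the Fc receptor subunit *Fcer1g* (0.97), *Plekha4* (0.95) and *Pced1b* (0.94). Most like *C1s1* were *Acod1* (r = 0.97), *Ms4a4d* (0.95), *Serping1* (0.94), which encodes the inhibitor of C1r and C1s, *Irf4* (0.94) and *C1ra* (0.94). Most like *C3* were *Igf1* (r = 0.91), *Zfp712* (0.91), *Cp* (0.91), *C1s1* (0.88) and *Mtm1* (0.88). Most like *Cfb* were the granzyme genes *Gzma* (r = 0.93) and *Gzmc* (0.89), *Cept1* (0.92), *Olfr56* (0.88) and *Commd8* (0.87). *Cp*, which encodes ceruloplasmin, varied with *C3* within groups but fell between them, with a log2 fold change of -0.79 (limma adjusted p = 1.48e-05).

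Of 46 other complement genes examined on 3 lists by role, 31 had a deposited value. At an adjusted p under 0.05, 6 of the 31 were higher and 1 lower, against 21.1% and 20.7% of all genes. With the fold threshold 3 were called higher and 1 lower, against 6.20% and 3.97% of all genes. Their median log2 fold change was 0.30, against 0.01 over all genes.

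Among the 10 regulators examined, 4 were higher and 0 lower at an adjusted p under 0.05, and for 3 the groups did not overlap, all with the *Filip1l*-knockdown tumors above. Over all genes these shares were 21.1% higher, 20.7% lower and 10.6% without overlap and higher. *Cfhr2* had 23.7 to 151 normalized counts in CTL (median 77.0) and 1206 to 3245 in *Filip1l*-knockdown tumors (median 2391). Its log2 fold change was 4.92 ± 0.40 (SE, limma adjusted p = 5.72e-07, exact permutation p = 0.00216), larger than that of any other complement gene examined. *C4bp*, whose product binds C4b, had 99.7 to 206 normalized counts in CTL (median 144) and 484 to 786 in *Filip1l*-knockdown tumors (median 709). Its log2 fold change was 2.20 ± 0.18 (SE, limma adjusted p = 6.25e-07, exact permutation p = 0.00216). *Cd55*, a membrane protein that dissociates C3-cleaving enzymes, had 249 to 417 normalized counts in CTL (median 316) and 501 to 655 in *Filip1l*-knockdown tumors (median 581), with a log2 fold change of 0.87 (limma adjusted p = 6.86e-05). *Cfhr2*, *C4bp* and *Cd55* all lie on chromosome 1, where the median gene shifted by 0.01 on the log2 scale.

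*Serping1* had 2803 to 3686 normalized counts in CTL (median 3119) and 3078 to 6386 in *Filip1l*-knockdown tumors (median 5355), with a log2 fold change of 0.58 ± 0.18 (SE, limma adjusted p = 0.0180). Its *Filip1l*-knockdown tumors 4 and 5, with 3078 and 3163 normalized counts, were again inside the CTL range. *Clu*, which encodes the terminal-pathway inhibitor clusterin, was by far the most abundant complement gene, with 337092 ± 19194 normalized counts in CTL and 301736 ± 55673 after *Filip1l* knockdown (SD, n = 6 each). For *Clu* the log2 fold change was -0.18 (limma adjusted p = 0.303). *Clu* lies on chromosome 14, whose median gene had a log2 difference of 0.38 between groups, higher with *Filip1l* knockdown, and with chromosome medians removed the change of *Clu* was -0.56 (limma adjusted p = 0.00233). On chromosomes 19 and 8 the median gene shifted by -0.36 and -0.20. On chromosomes 4, 6 and 17, which hold the 9 components, the median gene shifted by 0.02, -0.03 and 0.04.

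Of 12 other components measured, 1 was higher and 1 lower at an adjusted p under 0.05, against 21.1% and 20.7% of all genes. *C7*, of the membrane attack complex, had 1.49 to 17.0 normalized counts in CTL (median 6.38), at or under the floor of 3 reads in 2 tumors, and 7.83 to 95.8 in *Filip1l*-knockdown tumors (median 19.3). Its log2 fold change was 1.85 ± 0.59 (SE, limma adjusted p = 0.0209). *Masp1*, a protease of the lectin route, had 79.7 to 137 normalized counts in CTL (median 113) and 16.6 to 78.7 in *Filip1l*-knockdown tumors (median 35.6), with a log2 fold change of -1.63 ± 0.31 (SE, limma adjusted p = 0.000744) and no overlap. Of 9 receptors and binding proteins 1 was higher and 0 lower, against the same shares of all genes. That gene was *Cd93*, with a log2 fold change of 0.49 ± 0.14 (SE, limma adjusted p = 0.0138). The receptors of the C3 and C5 fragments did not pass the test, with log2 fold changes of 0.02 for *C3ar1* (95% interval -0.32 to 0.36) and 0.10 for *C5ar1* (95% interval -0.26 to 0.46).

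**Figure D4:**
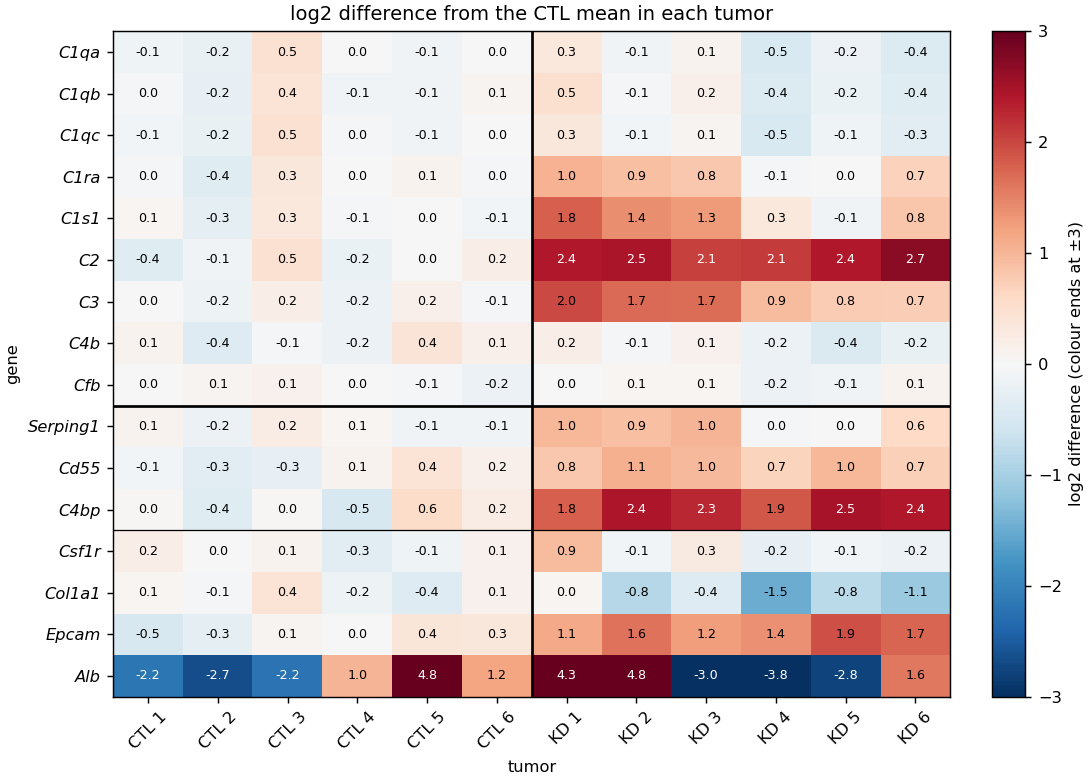
Log2 difference of each tumor from the CTL mean, on the scale log2(normalized count + 1), for the 9 components (top), 3 regulators (middle) and 1 marker each of macrophages, fibroblasts, epithelium and hepatocytes (bottom). Colours end at -3 and 3. The rows of *C1ra*, *C1s1* and *Serping1* are close to the CTL mean in *Filip1l*-knockdown tumors 4 and 5, and *Alb* is high in CTL tumor 5 and *Filip1l*-knockdown tumors 1 and 2.

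Markers of the cell types that can hold complement transcripts moved with the groups in different ways, and their part in the results was not tested. At an adjusted p under 0.05, 21.1% of all genes were higher and 20.7% lower, the shares to set beside each list here. Of 12 macrophage markers 2 were higher and 0 lower at that threshold, with a median log2 fold change of 0.11. Their summed level was 24977 to 33041 normalized counts in CTL and 23059 to 68050 in *Filip1l*-knockdown tumors, and the highest was *Filip1l*-knockdown tumor 1, which was also the highest of its group for *C1qa*, *C3*, *C1s1* and *C1ra*. Most of that sum came from *Lyz2* and *Ctss*, with 40990 and 13837 of the 68050 normalized counts in *Filip1l*-knockdown tumor 1. These 2 markers with the most reads had log2 fold changes of 0.08 (limma adjusted p = 0.855) and 0.03 (limma adjusted p = 0.927). Of 10 fibroblast markers 3 were lower and 0 higher, with a summed level of 172163 to 287927 normalized counts in CTL and 81127 to 265183 in *Filip1l*-knockdown tumors. Collagen genes held most of that sum, with 95075 for *Col1a1* and 80620 for *Col1a2* of 255518 normalized counts in CTL tumor 1. In the fibroblast sum *Filip1l*-knockdown tumor 4 was the lowest and tumor 1 the highest of their group. *Col1a1* and *Col1a2* had log2 fold changes of -0.76 (limma adjusted p = 0.0108) and -0.97 (limma adjusted p = 0.00626). Of 10 epithelial markers 9 were higher and 0 lower, with a summed level of 152368 to 199828 normalized counts in CTL and 223726 to 409161 in *Filip1l*-knockdown tumors, led by *Krt8* (log2 fold change 1.06) and *Krt18* (0.44). All 6 neutrophil markers were higher, with a summed level of 305 to 380 normalized counts in CTL and 767 to 1223 in *Filip1l*-knockdown tumors. Of these *S100a9* had a log2 fold change of 1.87 and *Csf3r* of 1.33. Of 6 endothelial markers 5 were higher, as were 5 of 6 skeletal muscle and 2 of 4 adipocyte markers, and none of these was lower. In the endothelial sum *Filip1l*-knockdown tumor 1 was again the highest of its group, and in the epithelial sum the lowest.

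Several hepatocyte markers, *Alb* among them, stood out in single tumors of both groups. *Alb*, which encodes albumin, had 5043 normalized counts in CTL tumor 5, 3646 in *Filip1l*-knockdown tumor 1 and 5010 in *Filip1l*-knockdown tumor 2, and between 11.7 and 533 in the other 9 tumors. The 7 hepatocyte markers summed to 299 to 8147 normalized counts in CTL and 1312 to 9519 in *Filip1l*-knockdown tumors, and *Serpina1a*, *Apoh* and *Ahsg* were at or under the floor in some tumors. Of the 7, *Apoa1* and *Ttr* were higher in *Filip1l*-knockdown tumors. Without the 3 tumors with the most *Alb*, the log2 fold change of *C2* was 2.32 (limma adjusted p = 2.94e-06) and that of *C3* was 1.06 (limma adjusted p = 0.000525) and both passed. That of *C1s1* was then 0.58 (limma adjusted p = 0.0659) and that of *C1ra* 0.38 (limma adjusted p = 0.147), and neither passed. *Serping1* (0.38, limma adjusted p = 0.147) and *C7* (1.21, limma adjusted p = 0.0994) did not pass an adjusted p under 0.05 either. *C4bp* (2.36), *Cfhr2* (5.23), *Cd55* (0.92), *Cd93* (0.45) and *Masp1* (-1.71) passed without these tumors too.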

How the data were processed

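The 12 tumors were grouped by their labels, and none was left out. No batch is given in the labels. According to the methods of the paper and the submitters' processing notes, libraries were made from oligo(dT)-selected RNA with a kit not stated to keep strand, and reads were demultiplexed with bcl2fastq 2.20, trimmed with Trimmomatic 0.36, aligned with STAR 2.5.2b (mm10 in the notes) and counted with featureCounts of Subread 1.5.2. The authors divided the counts by DESeq2 size factors before they deposited them, which makes the values a normalized signal, comparable between tumors for a gene and not corrected for length. No count test was run, because the deposited values are not counts and in 3 tumors the value of 1 read was within 1% of 1. That step was used only for the depth and for the floor of 3 reads.

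Values were compared as log2(value + 1) by limma 3.58.1 (R 4.3.3, variance trend) and Benjamini-Hochberg adjustment over 15687 genes. Requiring a mean of 5 normalized counts removed 0 genes. A gene was called where the adjusted p was under 0.05 and the log2 fold change exceeded 1 in size. Single components and log2 ratios of pairs were tested by exact two-sided permutation over 924 arrangements, and correlations by 100000 permutations. Positions and exon lengths came from GENCODE M21 on GRCm38. Named were the 9 components, the other complement genes past the adjusted p (with values of some that were not past it), the 2 markers of a list with the most reads where a list is described, and the 5 genes most like *C1qa*, *C1s1*, *C3* and *Cfb*. Chosen outside this rule, with values known, were *Clu*, *C3ar1*, *C5ar1*, *C1rb*, *C1s2*, *C4a*, *Zbtb12* and the hepatocyte genes. The acute-phase genes were also outside it, and those past the adjusted p were named. *Csf1r*, *Col1a1* and *Epcam* stand for their cell types in the correlations.

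The components and lists were chosen with earlier results of these data known. The motif patterns, and leaving out the 3 tumors with the most *Alb*, were chosen after the data had been seen. Alternatives were other pseudocounts, filters and scalings, no variance trend, a replicate block, removal of chromosome medians (genes with a mean of at least 50) and each tumor left out in turn. The steps were tested on simulated data. A result for 1 regulator is not reported here, and that gene was left out of the lists. Plots used matplotlib 3.10.9 under Python 3.11.15.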

Additional observations from a re-analysis of the deposited data

Results flagged for a closer look

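In 32 groups of 6 tumors (both groups for the components and the other complement genes past the test), the gap of the highest or lowest tumor to its nearest neighbour was compared with the range of the group, and 3 groups had a tumor that stood apart. Chance alone sets a tumor apart in about 1 in 20 groups. *C1qa* in CTL tumor 3 had 6678 normalized counts, against 4908 in the next CTL tumor. *C1qc* in the same tumor had 4634 normalized counts, against 3378 in the next. *C7* in *Filip1l*-knockdown tumor 1 had 95.8 normalized counts, against 26.2 in the next tumor of that group.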

How the results depend on the processing

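Over 22 alternatives, 296 of 308 values stayed on the same side of the threshold with the same direction, or within 1.5 times for counts. *C2* and *C3* passed in all 22. Leaving out 1 tumor at a time gave log2 fold changes of 0.47 to 0.69 for *C1ra* (limma adjusted p from 0.00547 to 0.0595, not past the threshold without CTL tumor 2 or *Filip1l*-knockdown tumor 2, 3 or 6), 0.74 to 1.12 for *C1s1*, 2.28 to 2.45 for *C2* and 1.16 to 1.41 for *C3*. It moved *C1qb* from -0.177 to 0.0147, with a change of sign without CTL tumor 3, and *Cfb* from -0.0434 to 0.0225, with a change of sign without CTL tumor 2 or 3 or *Filip1l*-knockdown tumor 4 or 5, and neither gene passed in any of these fits. Between 2 and 3 components were then called higher. Leaving out the 3 tumors with the most *Alb* left 2 of the 9 components past an adjusted p under 0.05, with log2 fold changes of 0.38 for *C1ra* (limma adjusted p = 0.147) and 0.58 for *C1s1* (limma adjusted p = 0.0659), and fewer tumors were tested. Over all genes 1596 were called, 1513 to 1712 with 1 tumor left out and 1352 to 1700 otherwise. Nothing shows that replicate numbers pair the tumors, since same-numbered tumors had correlations of -0.269 to 0.0990 after group means were removed and 0 CTL tumors matched best with their own number. With the replicate number as a block *C2* was 2.35 (limma adjusted p = 5.70e-06), *C3* 1.30 (limma adjusted p = 0.000448), *C1s1* 0.92 (limma adjusted p = 0.0101) and *C1ra* 0.57 (limma adjusted p = 0.0339), 1554 genes were called, and no call among the 9 components changed. With 6 tumors a group, changes inside the 95% intervals of the C1q genes, *C4b* and *Cfb* remain compatible with the values.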

Other observations

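Among 9 acute-phase genes measured, many of which share the liver as a source with complement, 4 rose and 1 fell with *Filip1l* knockdown at an adjusted p under 0.05. Over all genes 21.1% were higher and 20.7% lower. *Lcn2*, which encodes an iron-scavenging protein, had a log2 fold change of 1.56 (limma adjusted p = 6.7e-05), and *Cp* was the gene that fell. Serum amyloid *Saa3*, haptoglobin (*Hp*) and *Serpina3n* were higher, with limma adjusted p between 0.0443 and 0.0473 and overlapping groups.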
